A study of Mus musculus with 3 samples.

Results

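A group of mouse melanoma cells that carried transcripts of Car9, Espn and Prdm16 was described in B16-F10 tumors profiled by single-cell RNA-Seq. B16-F10 is a pigmented melanoma line derived from C57BL/6 mice, and the tumors grew in the skin of C57BL/6J mice aged 6 to 8 weeks. Of the 3 libraries, 2 were made from cells carrying an shRNA to Mib2, a different one in each (labelled shMib2, replicates 1 and 2), and 1 from cells with a control shRNA (labelled shCtrl), and each pooled dissociated tumors of 3 mice and was made with a 5′ V(D)J kit. The study asked how knockdown of Mib2, a ubiquitin ligase, changed the cells of these tumors. Because mice were pooled, an error between mice could not be given for any library.

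Melanoma cells were taken as barcodes with at least 5000 unique molecular identifiers (UMIs, which tag single RNA molecules), at most 20% mitochondrial UMIs and at least 0.5% of UMIs from Dct and Pmel, a melanin enzyme and a melanosome matrix protein. Member cells had at least 1 UMI each of Car9, Espn and Prdm16 and did not have UMIs of both Cck and Car6, which mark another group of melanoma cells here. They numbered 5475 of 18546 melanoma cells (29.5%) and of 27374 barcodes in all. Comparison cells, with 0 UMIs of all 3 genes, numbered 694, of which 182 had UMIs of both Cck and Car6. Members were thus selected on measured UMIs of their own cells, and the levels of the 7 genes of the rule are given as a description without a test.

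Car9 encodes carbonic anhydrase IX, a membrane enzyme that turns carbon dioxide and water into bicarbonate and protons at the cell surface. It is a well-known target of the hypoxia-inducible factors (HIFs), transcription factors that are degraded when oxygen is plentiful and that otherwise raise genes for glycolysis, glucose uptake, blood vessel growth and mitochondrial removal. Espn encodes espin, which bundles actin filaments in microvilli and in the stereocilia of the inner ear, and Prdm16 encodes a zinc-finger regulator best known for directing brown and beige fat and for blood stem cells.

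Car9, Espn and Prdm16 all lie on mouse chromosome 4. On mm10, Car9 was annotated at chr4:43506966-43513729 on the plus strand, Espn at chr4:152120331-152152371 on the minus strand and Prdm16 at chr4:154316125-154636873 on the minus strand, all as protein-coding genes. Nppb, which encodes B-type natriuretic peptide, lay on the same chromosome at chr4:147985788-147987205. Tnfrsf9, which had the largest fold change among higher genes that averaged at least 10 CPM (UMIs of a gene per 1000000 UMIs) in the sums compared below, was at chr4:150914562-150946102. Chromosome 4 did not stand apart as a whole. The median log2 fold change of member over comparison cells was 0.04 for the 814 chromosome 4 genes tested, within the range of -0.05 to 0.07 over all chromosomes, and 0.14 for the 39 genes tested in the window of 5 Mb that holds Espn and Prdm16. In a window of 10 Mb around the same genes the median was 0.03.

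The promoters of the 3 genes and of 3 genes that were higher in member cells are shown because HIFs bind DNA at a short core, ACGTG or GCGTG, so that the printed bases show which of these genes carry one next to their start. Each line gives the 250 bases before a RefSeq transcription start on GRCm38.p6 (5′ to 3′ on the strand of the gene), and capitals mark either core on either strand (CACGT and CACGC on the reverse strand). Espn had 3 starts, and the one at the outer end of the annotated gene is shown. Of the others, 1 had a GCGTG core and 1 had no core.
Car9, chr4:43506776-43507025: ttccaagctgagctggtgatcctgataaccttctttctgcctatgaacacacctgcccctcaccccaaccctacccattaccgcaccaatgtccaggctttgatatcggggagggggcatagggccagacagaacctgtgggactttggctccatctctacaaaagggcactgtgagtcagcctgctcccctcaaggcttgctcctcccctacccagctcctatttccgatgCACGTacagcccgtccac
Espn, chr4:152152390-152152639: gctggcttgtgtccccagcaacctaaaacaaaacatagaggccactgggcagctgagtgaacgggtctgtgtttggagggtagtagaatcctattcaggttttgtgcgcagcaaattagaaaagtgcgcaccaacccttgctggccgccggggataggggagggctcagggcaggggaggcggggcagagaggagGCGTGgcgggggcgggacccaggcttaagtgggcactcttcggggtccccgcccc
Prdm16, chr4:154636874-154637123: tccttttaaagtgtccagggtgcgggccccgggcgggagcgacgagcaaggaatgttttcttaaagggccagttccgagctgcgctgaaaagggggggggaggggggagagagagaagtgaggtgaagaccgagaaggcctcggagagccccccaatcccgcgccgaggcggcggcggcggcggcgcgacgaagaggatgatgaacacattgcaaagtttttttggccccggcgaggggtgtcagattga
Nppb, chr4:147985650-147985899: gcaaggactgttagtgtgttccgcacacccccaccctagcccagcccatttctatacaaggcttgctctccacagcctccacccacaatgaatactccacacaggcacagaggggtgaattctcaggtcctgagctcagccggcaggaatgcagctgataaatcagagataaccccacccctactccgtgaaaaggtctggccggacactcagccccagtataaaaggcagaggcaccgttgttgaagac
Ero1l, chr14:45318573-45318822: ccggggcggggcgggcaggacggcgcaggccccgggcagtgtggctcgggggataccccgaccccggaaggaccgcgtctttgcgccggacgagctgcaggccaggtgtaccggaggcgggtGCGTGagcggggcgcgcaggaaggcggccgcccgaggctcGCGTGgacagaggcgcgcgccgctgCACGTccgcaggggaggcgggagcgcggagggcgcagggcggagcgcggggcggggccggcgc
Bnip3, chr7:138909507-138909756: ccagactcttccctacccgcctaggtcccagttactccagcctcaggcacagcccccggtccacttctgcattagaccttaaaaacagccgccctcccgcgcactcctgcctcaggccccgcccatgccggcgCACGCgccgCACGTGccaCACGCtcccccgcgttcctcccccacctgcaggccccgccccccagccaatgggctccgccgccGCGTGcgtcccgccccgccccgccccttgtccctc

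The Car9 window held 1 ACGTG core, 18 bases before the RefSeq start, and the Espn window held 1 GCGTG core, 55 bases before it. RefSeq starts can lie inside the annotated gene, and the windows of Car9, Nppb, Ero1l and Bnip3 overlap it. The Car9 core lies within the annotated gene. No core was found in the Prdm16 and Nppb windows. Ero1l had 1 ACGTG and 2 GCGTG cores, and Bnip3 had 2 ACGTG and 3 GCGTG cores, where the 2 ACGTG matches are the strands of 1 CACGTG. Other genes looked up are not printed. Of them, Tnfrsf9 had no core at any start, and Vegfa and Pgf had cores at 1 start but not at another. Ankrd37, Slc2a1, Egln3 and Higd1a had cores. Kcnj13, which was lower in member cells, had 1 ACGTG core. Over all 27025 genes with a promoter sequence, 18.5% held ACGTG and 30.9% held GCGTG in this window. Among genes tested between member and comparison cells the shares were 25.5% and 49.9%, among those higher in member cells 30.4% and 56.5%, and among those lower 25.4% and 50.7%. A core is a description of the letters and not a measured binding site.

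Member cells made up 28.6% of melanoma cells in shMib2 replicate 1 (1870 of 6545), with a 95% interval by the Wilson method of 27.5% to 29.7%. The share was 30.1% in shMib2 replicate 2 (1179 of 3919, 28.7% to 31.5%) and 30.02% in shCtrl (2426 of 8082, 29.0% to 31.0%). The shCtrl share lay between those of the shMib2 libraries, and the exact permutation test of 1 library against 2 could not give a p below 0.333. The intervals cover counting error only. When each cell was thinned to 5000 UMIs the shares were 10.5%, 9.80% and 10.9%, so the size of the group depended on the depth at which cells were read. With at least 2 UMIs of each gene they were 17.5%, 21.0% and 19.0%.

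**Figure D1:**
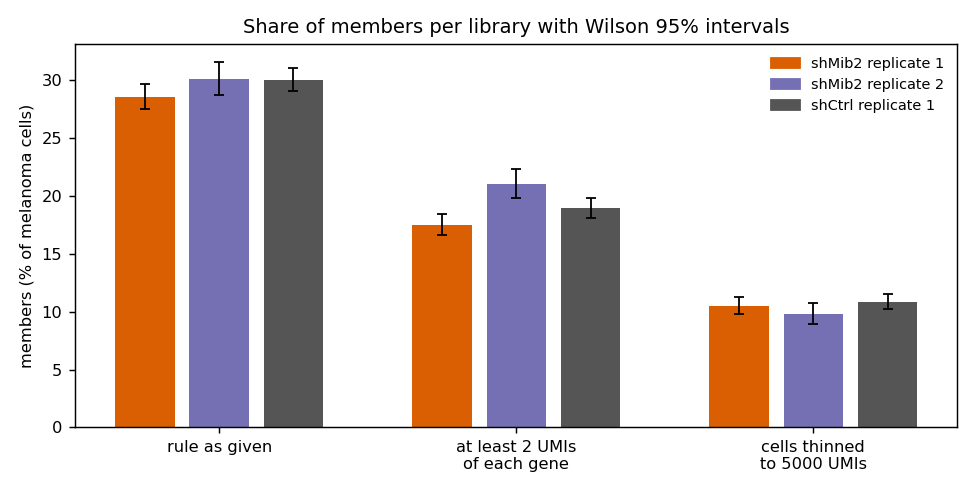
Bars give member cells as a percentage of melanoma cells in each library under the rule as given, with at least 2 UMIs of each gene, and with cells thinned to 5000 UMIs, with Wilson 95% intervals that cover counting error. Under the rule as given the shares were 28.6% and 30.1% in the shMib2 libraries and 30.02% in shCtrl.

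In member cells the median was 10, 15 and 10 UMIs of Car9, 4, 6 and 4 of Prdm16 and 3, 4 and 3 of Espn, in the order shMib2 replicate 1, shMib2 replicate 2 and shCtrl, which is kept for all values of 3 libraries below. The lowest of the 3 genes stood at exactly 1 UMI in 38.8%, 30.1% and 36.9% of member cells, so a large part of the group lay just inside the limit. Of the 1687, 908 and 2074 cells just outside it, with 2 of the 3 genes and not both Cck and Car6, 80.7%, 80.3% and 82.7% lacked Espn. After thinning to 5000 UMIs, the 3 genes were found together in 2.33, 2.26 and 2.30 times as many melanoma cells as the product of their single shares. As levels, Car9 was 431, 388 and 414 CPM in member cells, against 169, 163 and 175 CPM in cells with UMIs of both Cck and Car6, and Espn was 208, 177 and 203 CPM against 65.6, 64.3 and 70.5 CPM. Prdm16 was 182, 155 and 180 CPM against 108, 106 and 110 CPM. The rule sets these gaps in part, since every member cell had to hold a UMI of each gene and the other cells did not. Cck, a gut and brain peptide hormone that the rule allowed without Car6, was 108, 140 and 118 CPM in member cells, against 741, 1187 and 690 CPM in comparison cells, a gap that the rule sets in part, since only member cells exclude those with both Cck and Car6. For Car9 and Cck, the ratio of joint to expected detection was 0.92, 0.95 and 0.92.

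Car9 UMIs were also counted in barcodes of other cells, where free RNA of burst cells would appear. These had a UMI of the leukocyte gene Ptprc and less than 0.5% of UMIs from Dct and Pmel. That limit removes the barcodes with the most melanoma RNA, and its part in the Car9 shares was not tested. At 1000 UMIs, Car9 was found in 2.08%, 1.31% and 0% of 674, 1453 and 96 such barcodes, against 19.3%, 18.7% and 19.5% of melanoma cells. Without thinning the Car9 shares were 5.49%, 3.99% and 2.08% against 77.0%, 80.2% and 79.3%, at medians of 1915, 2741 and 1735.5 UMIs in the leukocyte barcodes and 25491, 44590 and 27119 UMIs in melanoma cells. Dct was found at 1000 UMIs in 26.4%, 22.0% and 32.3% of the leukocyte barcodes. Of melanoma markers, 8 summed to 19212 to 20354 CPM in member cells and 21585 to 22951 CPM in comparison cells. Dct and Pmel, which the rule used to take melanoma cells, are among them, at 7568 to 9085 and 3960 to 4353 CPM in member cells. Among member cells, 3, 1 and 1 barcodes were shared by pairs of libraries.

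Nppb and Ppargc1a, which had been named with this group but were not in its rule, gave different pictures. Nppb was 71.2, 48.0 and 42.1 CPM in member cells, against 14.6, 11.2 and 8.05 CPM in comparison cells, and every summed member value lay above every comparison value. In the quasi-likelihood test of edgeR, adjusted by Benjamini-Hochberg and made on UMIs summed over the cells of each group in each library and with library as a block, its log2 fold change was 2.38 ± 0.09 (SE, adjusted p = 6.2e-23). At 5000 UMIs per cell, a Nppb UMI was found in 22.8%, 18.7% and 16.1% of member cells, against 9.41%, 6.33% and 3.05% of comparison cells. Ppargc1a encodes PGC-1α, a coactivator of mitochondrial biogenesis. It was 363, 353 and 334 CPM in member cells and 256, 301 and 295 CPM in comparison cells, a small rise (log2 fold change 0.40 ± 0.04, adjusted p = 3.1e-09), and 95.5% to 97.6% of member cells and 92.1% to 94.9% of comparison cells had a UMI of it. UMIs of Ppargc1a were thus nearly as common in comparison cells. Of 5 genes of the natriuretic peptide system tested besides Nppb, 3 passed and were higher, Npr2, the receptor of C-type natriuretic peptide (0.60), Furin, a protease that cuts the B-type precursor (0.29), and Pde5a, which degrades cyclic GMP (0.32), where 19.3% of all genes were higher. In shMib2 replicate 2 alone the log2 ratio was -0.15 for Furin and 0.02 for Pde5a.

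The main difference between member and comparison cells was a broad rise of HIF targets and glycolytic enzymes. Of 44 listed genes that passed the filter on low counts, of 46 listed, 42 were higher and 1 was lower in member cells, with a median log2 fold change of 1.72 where the median of all genes was 0.00. Over all 12990 genes tested, 2508 (19.3%) were higher and 2309 (17.8%) were lower, of which the lower count was 1359 without shMib2 replicate 1 and 1493 without shCtrl. Median depth was 23921, 41136 and 25285.5 UMIs in member cells and 22924, 35500 and 24306 UMIs in comparison cells. Car9, itself a HIF target, was used by the rule and is not among them. The list rose under every alternative tried, with medians from 1.01 to 1.95.

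Ero1l, an oxidase of the endoplasmic reticulum that drives disulfide bond formation, was 834, 808 and 812 CPM in member cells, against 75.1, 48.9 and 72.1 CPM in comparison cells. The summed values of the groups were far apart in each library, with a log2 fold change of 3.67 ± 0.06 (edgeR adjusted p = 7.7e-34). Bnip3, a receptor for the removal of mitochondria, was 610, 580 and 585 CPM, against 63.9, 40.0 and 71.5 CPM (3.34 ± 0.06, adjusted p = 2.3e-31). Its relative Bnip3l was also higher (2.04). Higd1a, a hypoxia-induced protein of the mitochondrial inner membrane, was 1959, 1993 and 1952 CPM, against 440, 394 and 438 CPM (2.29 ± 0.04, adjusted p = 3.8e-32).

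Genes for vessel growth and glucose use followed the same pattern. Vegfa, the main endothelial growth factor, was 240, 199 and 173 CPM in member cells, against 38.8, 23.5 and 25.3 CPM in comparison cells (2.85 ± 0.06, edgeR adjusted p = 1.1e-29). Slc2a1, the glucose transporter GLUT1, was 129, 125 and 129 CPM, against 23.4, 19.6 and 28.9 CPM (2.44 ± 0.07, adjusted p = 2.3e-26). For both genes every member value lay above every comparison value. Hilpda, which blocks lipid breakdown in lipid droplets, Ankrd37 and Ndrg1, both hypoxia-induced, had log2 fold changes of 2.83, 3.55 and 3.42. Among glycolytic enzymes the log2 fold changes ran widely, with 2.32 for Eno2, an enolase, 1.81 for Hk2, a hexokinase, 1.09 for Ldha, which makes lactate, 1.00 for Gapdh and 0.66 for Pgam1. Of the oxygen sensors, Egln1, the main hydroxylase that marks HIF-α for degradation, was 347, 321 and 363 CPM in member cells, against 72.8, 54.2 and 71.3 CPM in comparison cells. The factors themselves changed little or the other way. Hif1a had a log2 fold change of 0.34, and Epas1, which encodes HIF-2α, fell by 0.53 (adjusted p = 0.041) at levels of 2.53 to 4.40 CPM.

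**Figure D2:**
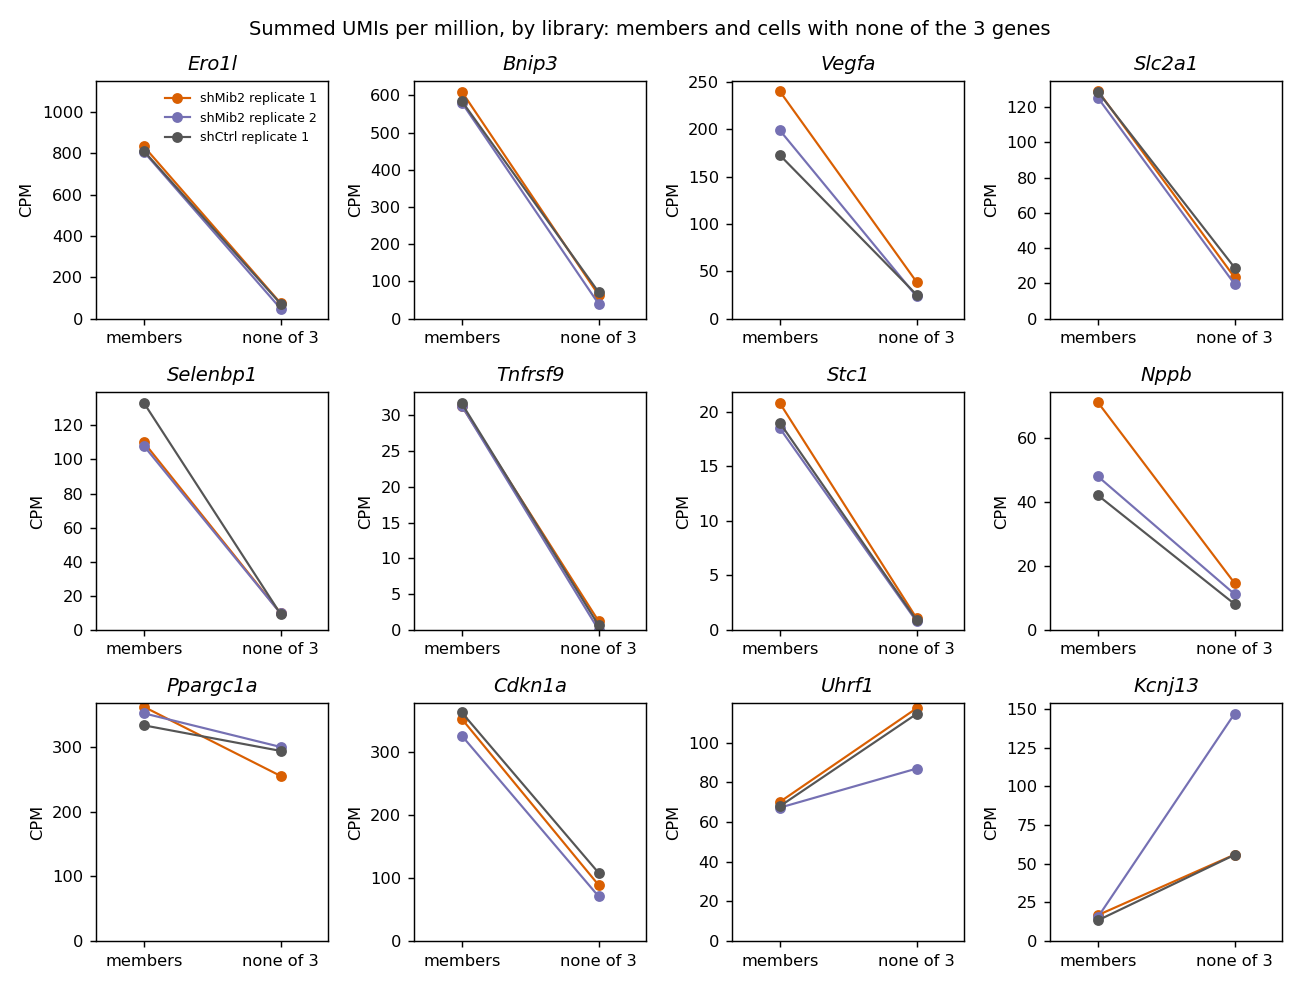
Each panel gives the CPM of 1 gene in member cells (left) and in comparison cells with none of the 3 genes (right), with 1 line per library. For Ero1l the member values were 808 to 834 CPM and the comparison values 48.9 to 75.1 CPM, while for Uhrf1 and Kcnj13 the member values were the lower ones.

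Per cell, the same list took a median of 3.90%, 3.72% and 3.88% of 5000 UMIs in member cells, against 1.80%, 1.60% and 1.78% in comparison cells. Cells with UMIs of both Cck and Car6 stood between, with 2.58%, 2.54% and 2.68%. The distributions overlapped, since the 5th percentile was 1.80% to 2.12% in member cells and the 95th percentile 2.51% to 3.02% in comparison cells.

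**Figure D3:**
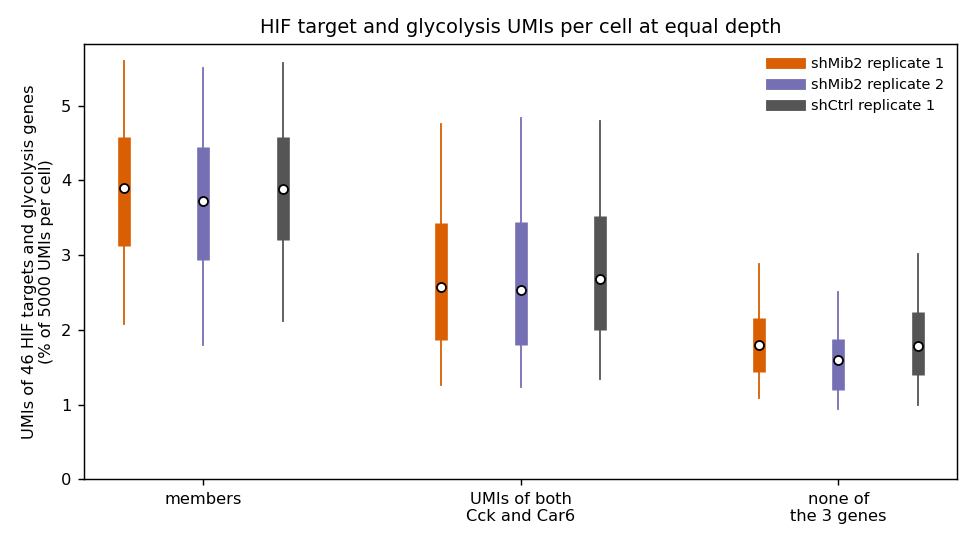
The vertical axis gives UMIs of 46 HIF target and glycolysis genes as a percentage of 5000 UMIs drawn from each cell, for member cells, cells with UMIs of both Cck and Car6, and cells with none of the 3 genes. White points are medians, thick bars the 25th to 75th and thin lines the 5th to 95th percentiles, and the medians fell in the same order in all 3 libraries.

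Some other genes among those with the largest fold changes, Tnfrsf9, Stc1 and Pgf, encode secreted or surface proteins. Tnfrsf9, the costimulatory receptor 4-1BB known from activated T cells, was 31.3, 31.3 and 31.6 CPM in member cells, against 1.22, 0 and 0.629 CPM in comparison cells, where these values rest on 8, 0 and 5 UMIs. Its log2 fold change was 5.46 ± 0.20 (edgeR adjusted p = 8.6e-23), a size that depends on those few UMIs. The summed level of 7 T cell markers was 6.14, 7.44 and 2.29 CPM in member cells and 4.87, 1.92 and 1.13 CPM in comparison cells, and their part in the Tnfrsf9 result was not tested. Stc1, the secreted glycoprotein stanniocalcin-1, was 20.8, 18.5 and 19.0 CPM, against 1.06, 0.769 and 0.881 CPM (4.48 ± 0.20), where the comparison values rest on 7, 2 and 7 UMIs and the size of the fold depends on them. Pgf, placental growth factor, was 45.5, 55.8 and 38.5 CPM, against 1.67, 1.92 and 2.89 CPM (4.36 ± 0.14), the comparison values resting on 11, 5 and 23 UMIs. In each of these 3 genes every member value was above every comparison value. Selenbp1, which oxidizes methanethiol, Pkp2, a desmosome plaque protein, Mpp2, a membrane scaffold, and Maff, a small Maf transcription factor, rose by 3.75, 3.37, 3.18 and 2.53 on the log2 scale.

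Kcnj13, the inward rectifier potassium channel Kir7.1, was the named gene that was furthest lower. It was 16.6, 15.3 and 13.3 CPM in member cells, against 55.8, 147 and 55.6 CPM in comparison cells (log2 fold change -2.25 ± 0.13, edgeR adjusted p = 1.5e-16). Dhrs2, a short-chain dehydrogenase, and Socs3, an inhibitor of cytokine signaling, each fell by 1.09 on the log2 scale.

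DNA replication genes were lower in member cells. Of 30 S phase genes, 0 were higher and 28 were lower, with a median log2 fold change of -0.37. Without shMib2 replicate 1, 19 were lower, and 19 were lower without library as a block. In cells without a UMI of Mki67, Top2a and Ccnb1, 6 of 28 were lower, and without cells holding 2 UMIs of markers of other types 11 of 16 were. That last setting left few cells, with 85, 9 and 262 member cells and 16, 2 and 40 comparison cells. Uhrf1, which maintains DNA methylation at replication forks, was 70.1, 67.2 and 67.9 CPM in member cells, against 117, 86.9 and 115 CPM in comparison cells (-0.58 ± 0.05, edgeR adjusted p = 3.6e-11). Tyms, which makes thymidylate, and Mcm3, a subunit of the replicative helicase, had -0.47 and -0.48, and Cdca7, which helps remodel chromatin for methylation, had -1.005. The share of S phase UMIs per cell had a median of 0.08% in member cells of each library, against 0.14%, 0.12% and 0.14% in comparison cells.

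CDK inhibitors stood on the other side. Cdkn1a, which encodes p21, was 352, 326 and 363 CPM in member cells, against 88.8, 70.8 and 108 CPM in comparison cells (2.01 ± 0.05, edgeR adjusted p = 2.6e-27). Cdkn1b, which encodes p27, was 83.6, 77.3 and 83.0 CPM, against 39.7, 41.5 and 43.0 CPM (1.08 ± 0.06, adjusted p = 1.5e-17). For both genes every summed member value lay above every comparison value. Of 20 CDK inhibitors and p53 targets tested, 10 were higher and 1 was lower, and the list had a median of 0.36 that was 0.19 without shMib2 replicate 1 and turned to -0.24 when only cells without a UMI of Mki67, Top2a and Ccnb1 were used. Mitotic genes had no stable direction. Of 30, 12 were higher and 6 lower (median 0.12), and with cells matched in UMIs 5 were higher and 7 lower (-0.04). With cells thinned to 5000 UMIs 1 was higher and 27 were lower (-0.45). There the groups were taken anew from the thinned UMIs, with 688, 384 and 877 member and 2104, 1269 and 2554 comparison cells, so the cells compared differ too. In the groups as first taken, a Mki67 UMI was found at 5000 UMIs in 31.6%, 28.1% and 31.0% of member cells and in 33.8%, 27.8% and 32.0% of comparison cells. At the same depth the median share of mitotic UMIs per cell was 0.06%, 0.06% and 0.08% in member cells. It was 0.14% in comparison cells of each library.

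Interferon-stimulated and antigen presentation genes were lower in the summed UMIs, with limits. Of 29 interferon response genes 0 were higher and 19 lower (median log2 fold change -0.46), and of 22 antigen presentation genes 2 were higher and 18 lower (-0.44). Iigp1, an interferon-induced GTPase, was 15.4, 25.4 and 1.05 CPM in member cells, against 34.97, 50.8 and 12.3 CPM in comparison cells (-1.39 ± 0.18, edgeR adjusted p = 8.1e-08), and Cxcl10, a chemokine that draws T cells, was 50.5, 50.5 and 39.2 CPM, against 86.4, 137 and 87.7 CPM (-1.01 ± 0.07). The levels of Iigp1 differed more between labels than between the groups of cells, so that its ranges overlapped. The related GTPases Igtp, Ifi47 and Gbp2 and the antiviral protein gene Ifit3 were lower too, with Igtp at -1.29 and Gbp2 at -1.13 on the log2 scale. Without shCtrl 13 of 29 interferon genes were lower and their median was -0.20, and without shMib2 replicate 1 10 of 22 antigen presentation genes were lower. With comparison cells that lacked UMIs of both Cck and Car6 and were matched in UMIs, 8 of 25 interferon genes were lower and 2 higher, and Ifit3 stood at 0.02. Without library as a block, 2 of 29 interferon genes and 3 of 22 antigen presentation genes were lower, and in DESeq2 10 of 29 and 10 of 21 were. The median share of interferon UMIs per cell was 0.02% in member cells of each library, against 0.04%, 0.04% and 0.02% in comparison cells.

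Among antigen presentation genes, the chaperones Calr and Pdia3, which load and fold class I molecules, had log2 fold changes of -0.68 and -0.51, and the immunoproteasome subunit Psmb10 had -0.64. H2-K1, a class I heavy chain, went the other way, with 95.3, 106 and 59.1 CPM in member cells, against 63.2, 62.7 and 26.8 CPM in comparison cells (0.89 ± 0.07, edgeR adjusted p = 3.7e-13). Class I heavy chain genes are near copies of each other, and how reads were split between them was not checked. Calr also belongs to the unfolded protein response, of which the chaperone Hspa5 fell by 0.64. Of 27 genes of ATF4 and the unfolded protein response 15 were higher, led by Eif4ebp1, an inhibitor of translation (1.41), and by Nupr1, a stress-induced nuclear protein (1.12), and 9 were lower, most of them chaperones of the endoplasmic reticulum. Cd274, which encodes PD-L1, the protein whose surface level the study followed, had 3.87, 4.40 and 1.86 CPM in member cells and 3.34, 5.77 and 2.39 CPM in comparison cells, and did not pass the test (-0.05 ± 0.22, adjusted p = 0.89).

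**Figure D4:**
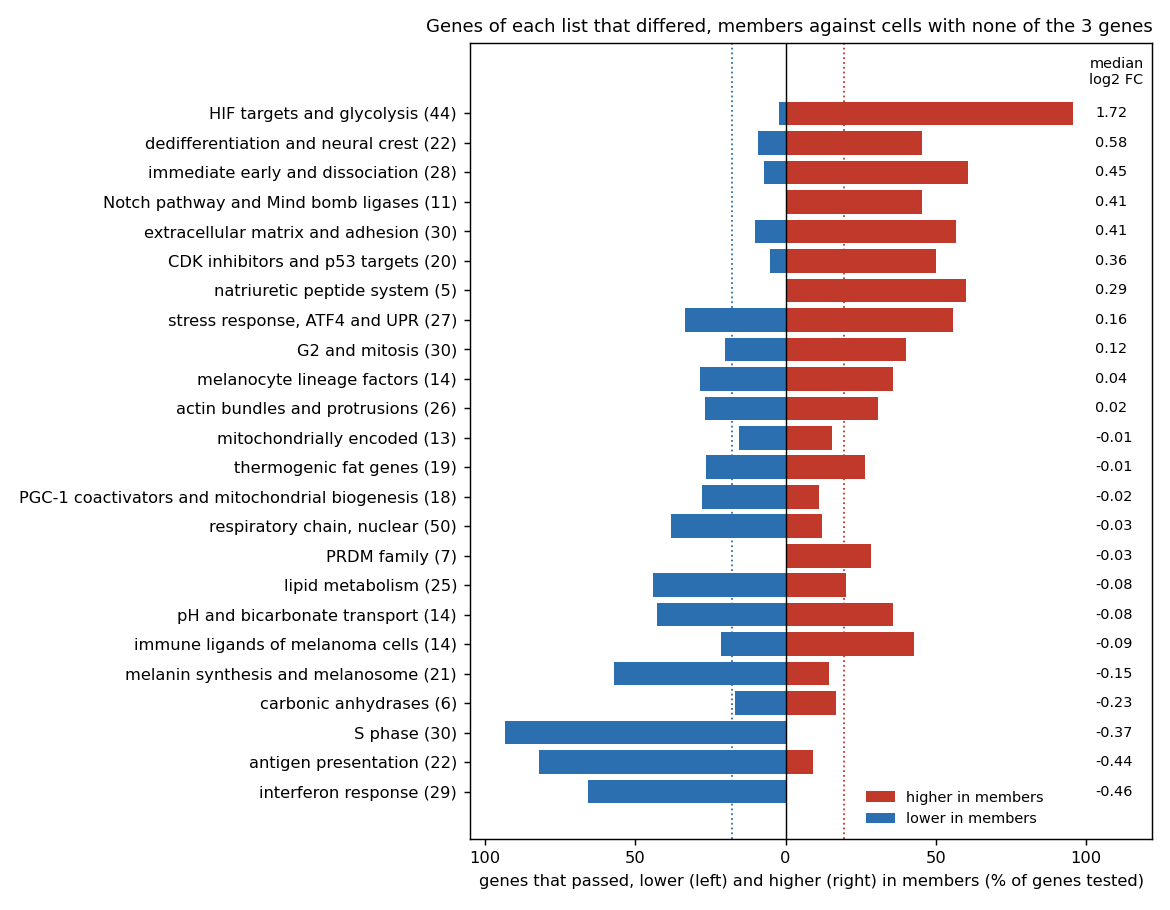
For each of 24 gene lists the bars give the percentage of tested genes that were higher (right) or lower (left) in member cells than in comparison cells at an adjusted p under 0.05, with the number of genes tested in brackets and the median log2 fold change at the right. Dotted lines mark the shares over all genes, 19.3% higher and 17.8% lower, and HIF targets and S phase genes lie at the 2 ends.

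Pigment genes leaned lower and genes of a less differentiated state higher. Of 21 melanin and melanosome genes 3 were higher and 12 lower (median -0.15). Trpm1, a channel of melanocytes, was 352, 320 and 325 CPM in member cells, against 577, 619 and 527 CPM in comparison cells (-0.69 ± 0.04, edgeR adjusted p = 2.7e-16), and Slc24a5, a melanosome cation exchanger, Gpr143, a melanosome receptor, and Mlana fell by 0.54, 0.76 and 0.43. Of 14 lineage factors 5 were higher, with 1.03 for Tfap2a, and 4 lower, with -0.17 for Mitf, the master regulator of the lineage. Of 22 dedifferentiation and neural crest genes 10 were higher and 2 lower (median 0.58), while the medians of the plain log2 ratios with 1 CPM added were 0.04, 0.47 and 0.25. Among the higher genes were the YAP targets Ccn1 (1.58) and Ccn2 (1.48), the AP-1 member Fosl2 (1.71), fibronectin Fn1 (1.37) and vimentin Vim (0.55). Fibroblast markers, 6 in number and none used by the rule, summed to 152, 146 and 9.62 CPM in member cells and to 135, 22.3 and 1.89 CPM in comparison cells, and their part in the Fn1 result was not tested.

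Immediate early genes, which also rise when tissue is dissociated, were higher for 17 of 28 and lower for 2 (median 0.45). Ier3, a survival gene of this class, was 317, 310 and 338 CPM in member cells, against 62.8, 60.01 and 64.2 CPM in comparison cells (2.46 ± 0.05, edgeR adjusted p = 1.1e-30), and Jund and Atf3 had log2 fold changes of 0.93 and 1.32. Fos, the classical member, had 0.31. Among immune ligands, 6 of 14 were higher and 3 lower, with a median of -0.09. Pvr, the ligand of TIGIT and CD226, had 1.51, Tnfsf9, the ligand of 4-1BB, had 1.14, and Cd47, which restrains phagocytes, had 0.72. The lower ones were Cd276, a checkpoint ligand (-0.48), Csf1, the macrophage growth factor (-0.77), and Cd80, a costimulatory ligand (-1.65).

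The families of the rule genes did not follow them. For comparison, 19.3% of all genes were higher and 17.8% lower. Of 6 other carbonic anhydrases tested of 14 listed, Car11 was higher (0.66) and Car14, a membrane form, was lower (-0.24), while the others did not pass. Of 7 other PRDM genes, Prdm2 and Prdm4 were higher (0.47 and 0.34) and 0 were lower. Of 26 actin bundle and protrusion genes 8 were higher, with the bundler Lcp1 furthest (2.00), and 7 lower. Of 19 thermogenic fat genes, a program in which Prdm16 acts in brown fat, 5 were higher and 5 lower, and of 18 genes of PGC-1 and mitochondrial biogenesis 2 were higher and 5 lower. Of 50 nuclear genes of the respiratory chain 6 were higher and 19 lower, with small differences such as -0.31 for Atp5a1, a subunit of ATP synthase, and -0.34 for Uqcrc1, a subunit of complex III, and of 13 mitochondrially encoded genes 2 were higher and 2 lower. Among pH and bicarbonate transporters 5 of 14 were higher and 6 lower. Slc16a3, which exports lactate, was 193, 174 and 182 CPM in member cells, against 52.8, 31.9 and 58.5 CPM in comparison cells (1.95 ± 0.07, edgeR adjusted p = 8.5e-24), and Slc4a4, a bicarbonate cotransporter, had 3.15, 3.46 and 2.95 CPM against 0.456, 0.769 and 0.378 CPM, the comparison values resting on 3, 2 and 3 UMIs.

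The level of the HIF list was also compared by which genes of the rule a cell held. Cells without UMIs of both Cck and Car6 were divided by which of the 3 genes had a UMI. The summed level of the HIF and glycolysis list was highest in member cells (36963, 35688 and 37331 CPM), followed by cells with Car9 and Espn (32247, 32555 and 32023 CPM) and with Car9 and Prdm16 (26541, 25585 and 26925 CPM). Cells with none had the lowest level (17921, 16339 and 19120 CPM). Levels without Car9 stayed below those with it, at 17970 to 20047 CPM for cells with Espn, Prdm16 or both. By number of the 3 genes from 0 to 3, the level was 19120, 20988, 26662 and 37331 CPM in shCtrl.

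Between patterns that differed in a single gene, 12 pairs over the 3 libraries were compared for each gene, and these pairs share cells. The HIF and glycolysis list was higher with Car9, with Espn and with Prdm16 in 12 of 12 pairs each. Other measures differed between the genes. Nppb and Cdkn1a were higher with Espn in 12 of 12 pairs and with Car9 in 12 of 12, but with Prdm16 in 4 of 12. Stc1 was higher with Car9 in 12 of 12, with Espn in 10 and with Prdm16 in 9. S phase UMIs went the other way for Prdm16, being higher with it in 11 of 12 pairs, and were higher with Car9 in 1 and with Espn in 3. Mitotic UMIs were higher with Prdm16 in 12 of 12 pairs. Kcnj13 was lower with Prdm16 in all pairs but 1, the exception being cells with Espn in shMib2 replicate 2, where the pattern without Prdm16 held 20 cells. Depth differed between patterns, with medians of 41136, 44562 and 29550 UMIs in shMib2 replicate 2 for member cells, cells with Car9 and Prdm16 and cells with Car9 and Espn, and its part in these pairs was not tested.

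**Figure D5:**
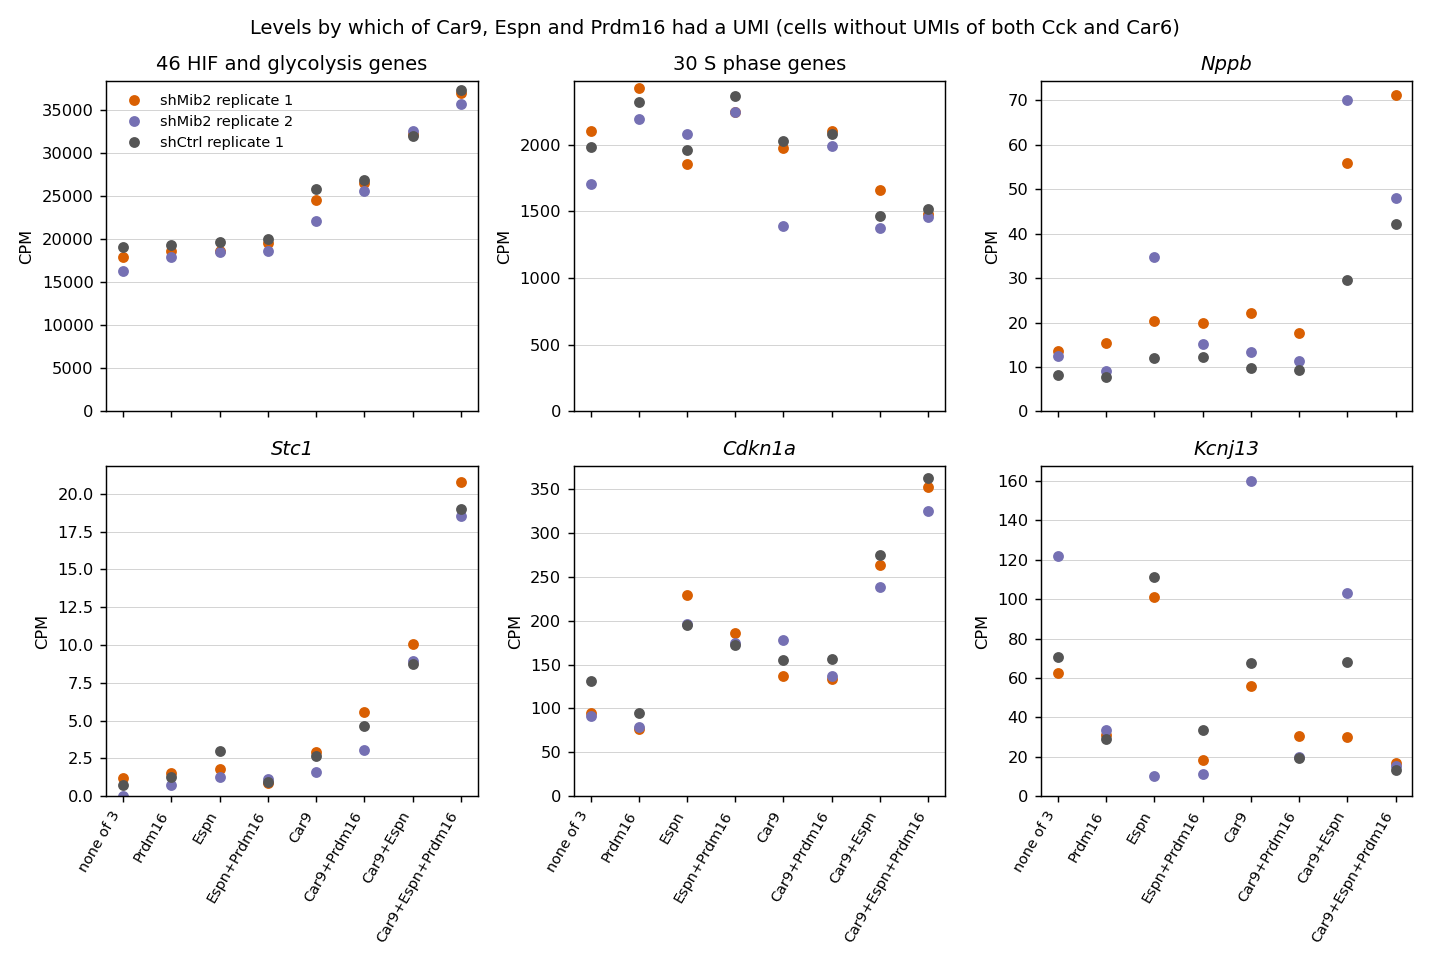
Each panel gives CPM by which of Car9, Espn and Prdm16 had a UMI, with 1 point per library, for melanoma cells without UMIs of both Cck and Car6. The HIF and glycolysis list lay at 22119 CPM or above in every pattern with Car9 and at 20047 CPM or below in every pattern without it.

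Cells with UMIs of both Cck and Car6 (1808, 1376 and 2296) were also set against member cells, and 708, 614 and 933 of them also had all 3 genes of the rule. Against them, 3840 of 14050 genes were higher in member cells (27.3%) and 3566 lower (25.4%) by the same test. HIF targets and glycolysis genes were again higher for 42 of 45 and lower for 0, with a smaller median of 0.72. S phase and mitotic genes were lower for 30 of 30 (median -0.38) and 29 of 30 (-0.28). Median depth was 29416.5, 49177 and 30968.5 UMIs in cells with both Cck and Car6, against 23921, 41136 and 25285.5 in member cells. The gene tests were not repeated with matched or thinned cells, so the part of depth in them was not tested. In thinned cells, the median mitotic share was 0.06%, 0.06% and 0.08% in member cells, against 0.18%, 0.16% and 0.2%. The S phase share was 0.08% in member cells of each library, against 0.14%, 0.14% and 0.16% in cells with both Cck and Car6. Ero1l was 834, 808 and 812 CPM in member cells and 322, 317 and 316 CPM in these cells (1.404 ± 0.01, edgeR adjusted p = 5.6e-25), and Tnfrsf9 was 31.3, 31.3 and 31.6 CPM and 9.21, 10.3 and 9.82 CPM (1.73 ± 0.04). For both genes every summed value of member cells lay above every summed value of these cells. Pkp2, Pgf and Isg20, an exonuclease, had 1.52, 1.39 and 1.48, while Socs3 (-1.24), Cyba, a subunit of NADPH oxidase (-0.87), Bmyc, a Myc relative, and Cdca7 (both -0.73) and Dhrs2 (-0.71) were lower. Interferon response genes did not lean lower here, with 5 of 29 higher and 3 lower (median 0.04).

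Within member cells, the libraries labelled shMib2 were then set against the library labelled shCtrl. Mib2 RNA itself was 3.42 and 2.46 CPM in the shMib2 libraries and 2.61 CPM in shCtrl (log2 fold change 0.12 ± 0.20, edgeR adjusted p = 0.83), so the RNA counts did not show the knockdown, and directions below are between labels. Of 14121 genes, 254 were higher (1.8%) and 13 lower (0.0921%) in member cells labelled shMib2. With 1 residual degree of freedom, the test assumed that the lone shCtrl library varied like the others. Without a filter on low counts 7 were higher and 0 lower, and without cells holding at least 2 UMIs of 9 leukocyte, stromal and endothelial genes 46 were higher and 0 lower.

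Interferon and antigen presentation lists held many of the higher genes. Of 29 interferon response genes 26 were higher (median 1.39) and of 22 antigen presentation genes 16 were higher (1.01), with 0 lower in either. Other lists held fewer, with 8 of 30 extracellular matrix and adhesion genes higher. Psmb8, an immunoproteasome subunit, was 14.9 and 19.4 CPM in the shMib2 libraries and 0.794 CPM in shCtrl (4.39 ± 0.24, edgeR adjusted p = 0.00024), Iigp1 was 15.4 and 25.4 CPM and 1.05 CPM (4.24 ± 0.39), and Cd74, the class II invariant chain, was 34.8 and 35.3 CPM and 2.01 CPM (4.08 ± 0.10). Both shMib2 libraries were above shCtrl for all 3. These genes averaged at least 10 CPM only through the shMib2 libraries. Their shCtrl values rest on 53, 70 and 134 UMIs, on which the size of the folds depends. Igtp had 3.32 and S100a6, a calcium-binding protein, 2.69. Markers of other cells moved with the label, as 6 fibroblast markers summed to 152 and 146 CPM in the shMib2 libraries and 9.62 CPM in shCtrl, 6 NK cell markers to 5.87 and 4.46 CPM and 0.225 CPM, with 3 of the 6 at 0 in shCtrl, and 7 T cell markers to 6.14 and 7.44 CPM and 2.29 CPM, and their part in these results was not tested.

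For the HIF list, Nppb and Ppargc1a few or no differences between labels passed the test, which does not show that the labels were alike. Of 45 HIF and glycolysis genes 0 were higher and 1 lower in member cells labelled shMib2, and S phase genes had a median log2 fold change of -0.08. Nppb was 71.2 and 48.0 CPM in shMib2 and 42.1 CPM in shCtrl (0.45 ± 0.18, edgeR adjusted p = 0.32), and Ppargc1a was 363 and 353 CPM and 334 CPM (0.05 ± 0.07, adjusted p = 0.76). The 5 lower genes named by the rule changed little, with -0.55 for Ftl1-ps1, a ferritin pseudogene whose reads may belong to its parent gene, -0.36 for Exosc7, an exosome subunit, -0.33 for Lmo1, a LIM-only cofactor, -0.33 for Selenbp1 and -0.32 for Tk1, thymidine kinase. The signed log2 fold change of member over comparison cells was higher in shMib2 than in shCtrl for 7 of 12990 genes (0.0539%) and lower for 0 (interaction term in edgeR, with 159 and 180 at an unadjusted p under 0.05 and 1 and 0 in DESeq2). Of these 7, 5 were lower in member cells of every library, with the deeper fall in shCtrl.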

How the data were processed

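Single-cell suspensions of B16-F10 tumors were profiled in 3 libraries of pooled tumors from 3 mice each. The authors deposited UMI counts per gene and barcode, which they had made with Cell Ranger 4.0.0 against mm10 per the submitters' processing notes, with 32285 genes a library. The libraries held 9428 and 8388 barcodes with 190904274 and 203298455 UMIs (shMib2 replicates 1 and 2) and 9558 barcodes with 243926188 UMIs (shCtrl).

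Counts were summed over cells per library and group and tested by edgeR 4.0.16 (TMM scaling, filterByExpr, quasi-likelihood F-test, Benjamini-Hochberg adjustment, threshold 0.05) in R 4.3.3, with library as a block between groups of cells. The 7 genes of the rule were left out of the tests. CPM are UMIs per 1000000 UMIs of a sum, not scaled by TMM. Alternatives were DESeq2 1.42.0, other scalings and filters, no block, other cell limits, thinning, matching in UMIs and leaving out each library. P-values between groups of cells measure how their difference varied over 3 libraries, with estimates of spread shared across genes. Between labels and in the interaction term, spread was seen only between the shMib2 libraries, which carry different shRNAs. The fits were tested on simulated data. Doublets were not called. Cells with UMIs of other cell types were left out as an alternative.

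The members, the 24 lists and the tests were chosen with earlier results of these data known. Genes named by size were the 15 highest and 10 lowest log2 fold changes (5 and 5 in other comparisons) that passed, averaged at least 10 CPM and went the same way in all libraries, without predicted, mitochondrial, ribosomal and marker genes. A gene could reach that average through the group where it was high alone, as Tnfrsf9, Stc1 and Psmb8 did. Up to 4 genes of lowest p were named from each list. Other list members named in the text (Bnip3l, Egln1, Hif1a, Epas1, Ldha, Gapdh, Pgam1, Eno2, Hk2, Ccn2, Fos, Cd274, Cd276, Csf1, Cd80) were chosen after their values were seen. Positions are from GENCODE vM21 on mm10 (32158 of 32285 genes, 99.6%), and promoters from RefSeq on GRCm38.p6, where 14 of 16 genes looked up were matched and Ero1l is listed as Ero1a. Other steps used scipy 1.17.1, pandas 2.3.3, matplotlib 3.10.9 and numpy 2.4.6 in Python 3.11.15.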

Additional observations from a re-analysis of the deposited data

Results flagged for a closer look

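The difference between member and comparison cells was compared between the shMib2 and shCtrl libraries by an interaction term (edgeR's quasi-likelihood test, Benjamini-Hochberg adjustment over 12990 genes). The signed log2 fold change of member over comparison cells was higher in shMib2 for 7 genes (0.0539%) and lower for 0, with 159 and 180 at an unadjusted p under 0.05 and 1 and 0 in DESeq2. These 7 were named after their values were seen.

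Interferon-induced genes led. The log2 difference of the contrast, shMib2 minus shCtrl, was 2.42 for Iigp1 (adjusted p = 0.00074), which stood at 15.4 and 25.4 CPM in member cells and 34.97 and 50.8 CPM in comparison cells of shMib2, and at 1.05 CPM in member cells and 12.3 CPM in comparison cells of shCtrl. It was 1.70 for Ifit3, 1.73 for Gbp2 and 1.71 for Tmem140. Gm4951, an Iigp1 relative, had 5.37, which rested on 3 UMIs in member cells and 37 UMIs in comparison cells of shCtrl. All 5 were lower in member cells in each library, with the deeper fall in shCtrl.

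Hbb-bt, a hemoglobin chain of red cells, had 1.97, with 41.6 and 25.3 CPM in member cells and 8.21 and 10.4 CPM in comparison cells of shMib2, and 17.6 CPM in both in shCtrl. Hspb1, a small heat shock protein, had 3.002, with 344 and 264 UMIs in member cells and 11 and 0 UMIs in comparison cells of shMib2, and 280 and 50 UMIs in shCtrl. The summed level of 5 erythroid markers was 430, 283 and 153 CPM in member cells and 261, 382 and 147 CPM in comparison cells, and its part in these results was not tested.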

How the results depend on the processing

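No paired analysis was possible because the labels' groups share fewer than 2 replicate numbers. The block here was the library: without it, 1815 genes were higher and 1451 lower in member than in comparison cells, and 2017 and 1676 against cells with Cck and Car6.

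The share of member cells (shMib2 replicate 1, shMib2 replicate 2, shCtrl) was 33.2%, 20% and 39.0% without cells holding 2 UMIs of markers of other types, 17.5%, 21.0% and 19.0% with 2 UMIs of each gene, 26.0%, 28.5% and 28.2% with Dct and Pmel at 1%, and 10.5%, 9.80% and 10.9% after thinning. Leaving out marker-bearing cells removed most cells. It kept 256, 45 and 671 melanoma cells, with 9 member and 2 comparison cells in shMib2 replicate 2, so all values of this setting rest on few cells. Genes higher and lower than in comparison cells numbered 1613 and 1368 in DESeq2, 533 and 329 without marker-bearing cells, and 1279 and 862 in cells without UMIs of Mki67, Top2a and Ccnb1. They numbered 4185 and 3536 against all other cells. Here and below, all other cells are melanoma cells that were not members and did not have UMIs of both Cck and Car6. With matched comparison cells lacking Cck and Car6, 1299 genes were lower. Leaving out 1 library gave 1840 to 2512 higher and 1359 to 2230 lower. Against cells with Cck and Car6, DESeq2 gave 2254 and 2308. Between labels within member cells, 7 were higher without a filter, 149 at 50 UMIs, 1 without marker-bearing cells, 9 in noncycling cells and 46 with the stricter lineage limit, and 5 were lower with the size factors of DESeq2, 0 without a filter, 1 at 50 UMIs, 26 without the deepest cells, 1 without marker-bearing cells, 0 in noncycling cells and 0 with the stricter limit. The interaction gave 19 and 3 without a filter and 1 in DESeq2.

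Median log2 fold changes moved as follows. After thinning, member and comparison cells were taken anew from the thinned UMIs, so the cells compared differ as well as the depth. HIF genes had 1.95 with 2 UMIs of each gene, 1.01 against all other cells and 1.54 with members regardless of Cck and Car6. S phase genes had -0.77 without marker-bearing cells, -0.60 in noncycling cells and -0.98 after thinning. Mitotic genes had 0.026 without the deepest cells, -0.50 without marker-bearing cells, -0.66 in noncycling cells, -0.045 with matching, -0.45 after thinning, -0.21 against all other cells, -0.071 with matched cells lacking Cck and Car6, 0.20 with members regardless of these and 0.042 with the stricter limit. Interferon genes had -0.064 against all other cells, and antigen presentation genes -1.07 in noncycling cells, -0.14 against all other cells and -0.21 with matched cells lacking Cck and Car6. CDK inhibitors and p53 targets had 0.061, -0.24, 0.22, 0.16 and 0.15 (without marker-bearing cells, noncycling, matched, thinned, all other cells), 0.23 and 0.074 with comparison cells lacking Cck and Car6, unmatched and matched, and 0.19 to 0.39 without 1 library. Chromosome 4 had 0.032 to 0.065 without 1 library, and the window of Espn and Prdm16 0.028 at 10 Mb.

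Reversed were Ifit3 at 0.020 (matched cells lacking Cck and Car6), Selenbp1 between labels at 0.18, Cox7a1 at -0.15 and Anln at -0.10 (without marker-bearing cells), Cox7a1 at -0.28, mt-Co1 at -0.14 and Hes1 at -0.58 (noncycling), mt-Co3 at 0.041 (thinned), Nusap1 at -0.55 and -0.13 (without marker-bearing cells, thinned), and Cenpf at -0.56, -0.86, -0.21 and -0.040 and Ube2c at -0.22, -0.43, -0.23 and -0.072 (without marker-bearing cells, noncycling, thinned, all other cells). The cause was not tested. Of 2146 values for 115 named genes against comparison cells, 1995 were counted as unchanged, 125 lost the call, 9 gained one and 17 were reversed. A change of direction was counted as reversed only for genes that had passed in the main test, and otherwise as unchanged. Matching was run from comparison cells to member cells, which were more numerous. The settings with comparison cells lacking Cck and Car6, with members regardless of these and with the stricter limit were chosen after seeing the data. With 1 library against 1, leave-one-out between labels gave values without a test.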

Other observations

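Member cells also differed from comparison cells in matrix and Notch genes. Of 30 extracellular matrix and adhesion genes 17 were higher and 3 lower (median log2 fold change 0.41), with 1.11 for Itgb3, an integrin chain, 0.47 for Sparc, a collagen-binding protein, and -0.78 for Spp1, osteopontin. The list holds Col1a1, Col1a2 and Col3a1, which are also fibroblast markers, and the summed fibroblast markers were 152, 146 and 9.62 CPM in member cells and 135, 22.3 and 1.89 CPM in comparison cells (shMib2 replicate 1, shMib2 replicate 2, shCtrl), whose part in this count was not tested. Of 11 Notch pathway and Mind bomb genes 5 were higher and 0 lower (median 0.41), among them the ligand Jag1 (0.92), the transcription factor Rbpj (0.79) and its coactivator Maml1 (1.03).

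Lipid genes went both ways, with 5 of 25 higher and 11 lower (median -0.08). Plin2, which coats lipid droplets, had 0.80, while Fasn, the fatty acid synthase, had -0.37 and Elovl6, which lengthens fatty acids, had -0.56. Over all genes tested 19.3% were higher and 17.8% lower.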
